A study of Mus musculus with 4 samples.

Results

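The genes described here encode parts of the junctions and intermediate filaments of epithelial cells. They are *Cldn3*, *Cldn4*, *Cldn6* and *Cldn7* (claudins), *Cdh1* (E-cadherin), *Epcam*, *Krt8*, *Krt18* and *Krt19* (keratins) and *Tjp1* (the scaffold ZO-1). These 10 genes, of 22217 protein-coding genes in the annotation, were chosen by name, and Gata4 peaks were collected within 5 kb and within 50 kb of each gene body. Gata4 binding was measured by ChIP-seq in 4 libraries, 1 per condition, so no value has a replicate and no difference between WT and DKO was tested.

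For the WT Flk1(+) and DKO Flk1(+) conditions, ES cells were grown on OP9 stroma to day 4.5, given 100 nM dexamethasone (Dex) for 3 h and sorted on Flk1, a receptor of early mesoderm. For WT ES and DKO ES, the cells were undifferentiated and received no Dex, and each of these libraries was the background for the Flk1(+) library of its genotype. WT cells are of the parental line J1, and DKO cells are deficient for both de novo DNA methyltransferases, Dnmt3a and Dnmt3b. Cells of all 4 libraries carried Gata4GR, in which Gata4 is joined to the hormone-binding part of human glucocorticoid receptor so that Dex switches it on, driven by a CAG promoter. Each genotype was represented by a single clone. The sort used Flk1 and not E-cadherin. RNA was not part of these files, so the expression of the genes was not analysed here. *Cldn3* and *Cldn7* belong to the genes that the study picked for a stronger response to Gata4 in DKO cells. The paper also mentions, without showing the data, that the *Cldn7* locus gained methylation as mesoderm formed, in inverse relation to Gata4 peaks. Positions of those peaks are not given there.

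Claudins and occludin seal the space between neighbouring epithelial cells at tight junctions, where ZO-1 ties them to actin. E-cadherin holds the cells together at adherens junctions, and keratins 8, 18 and 19 form the filaments of simple epithelia. Mesoderm arises from an epithelial layer whose cells give up these contacts, and several of these genes are commonly used as markers of the epithelial state.

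Peaks lay within 5 kb of 6 of the 10 genes in WT Flk1(+) cells, against 39.4% of all coding genes, and of 6 of the 10 in DKO Flk1(+) cells, against 49.1%. In both lists the genes *Cdh1*, *Cldn6*, *Krt8*, *Krt18* and *Krt19* had a peak, 5 of 10 against 31.9% of coding genes. *Tjp1* had one in WT alone and *Cldn4* in DKO alone. *Cldn3*, *Cldn7* and *Epcam* had a peak in neither list, 3 of 10 against 43.4%. Within 1 kb of a transcription start, peaks lay at 2 genes in WT (*Krt8* and *Krt19*; 24.1% of coding genes) and 3 in DKO (*Cldn4*, *Krt18* and *Krt19*; 37.3%). Within 50 kb all 10 genes had a peak in each list, where 67.1% of coding genes did in WT and 70.4% in DKO. The genes were shorter than most, with a median length of 5721.5 bp against 15532 bp for coding genes, and no correction was made for length.

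**Figure D1:**
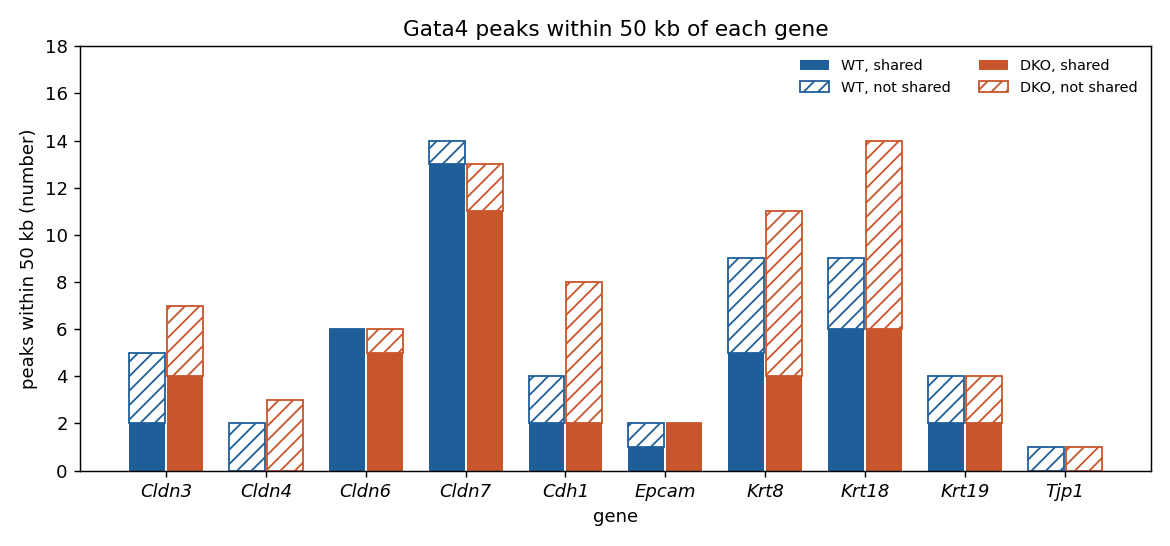
Number of Gata4 peaks within 50 kb of each gene (vertical axis, number of peaks) in the WT (blue) and DKO (orange) lists, with filled bars for peaks shared between the lists and hatched bars for the others. *Cldn7* had 14 WT and 13 DKO peaks, *Krt18* 9 and 14, and *Tjp1* 1 in each, and a peak near 2 of the genes is counted at both.

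A peak is given by its position, by its height in the Flk1(+) profile and by the height of the ES profile at the same place. The scaling of heights between libraries is not known, so a height is compared between WT and DKO only beside the same ratio over all shared peaks. A peak was called shared when the window of bases deposited around it overlapped a window of the other list, that is, when the positions lay within 500 bp. The sequences that Gata4 binds include AGATAA and TGATAA. Either of these, searched on both strands of the window, is called the motif here. It was present in 61.9% of all 20410 WT windows and 38.1% of all 22733 DKO windows. Coordinates are those of mm9.

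Among the claudin genes, which encode the sealing strands of tight junctions, *Cldn4* (chr5:135420996-135422804, minus strand) had the only peak inside the gene. It was a DKO peak at chr5:135422285, in the coding exon 519 bp from the start. Its height was 7.29 in DKO Flk1(+) and 1.97 in DKO ES cells, and its window held 32 CpGs and no motif. The nearest WT peak lay 11157 bp away. That WT peak, at chr5:135433442, and another at chr5:135433636 stood upstream of *Cldn4*, between it and *Cldn3*. Their heights were 6.35 and 6.13, with 0.529 and 1.69 in WT ES cells. Each had 1 motif, with 8 and 4 CpGs, and neither overlapped a DKO peak. The pair of WT peaks and the DKO peak in the exon thus differed in both CpGs and motif.

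*Cldn3* (chr5:135462084-135463342, plus strand), the neighbour of *Cldn4*, had no peak within 5 kb in either list. Its nearest DKO peak, at chr5:135450315, lay 11769 bp upstream with a height of 6.35 against 1.83 in DKO ES cells, 1 motif and 7 CpGs. Its nearest WT peak, at chr5:135485098, lay 21756 bp downstream at the start of *Abhd11*, and was also the tallest WT peak within 50 kb (7.40 against 2.44 in WT ES cells). The tallest DKO peak was at the same place, chr5:135485164, and measured 12.1 in DKO Flk1(+) and 3.27 in DKO ES cells. The DKO to WT ratio of this shared pair was 1.64, higher than 97.0% of the shared pairs, and the window had no motif in either list.

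*Cldn6* (chr17:23816332-23819413, plus strand), a claudin of early embryonic epithelia, had 2 peaks within 5 kb in each list, both upstream and both shared. The first, at chr17:23813690 in WT and chr17:23813726 in DKO, had a height of 7.42 in WT Flk1(+), 7.31 in DKO Flk1(+), 1.83 in WT ES and 2.04 in DKO ES cells. The second, at chr17:23814327 and chr17:23814353, had 5.58, 7.18, 1.78 and 2.23 in the same order. All 4 windows lacked the motif and held 34 to 37 CpGs. They lay within 1 kb of a start of the neighbour *Tnfrsf12a*, in an intron and a coding exon of it, so the upstream peaks of *Cldn6* are also peaks of that gene. Within 50 kb the tallest WT peak (14.3, chr17:23810673) was at the start of *Hcfc1r1* and the tallest DKO peak (9.67, chr17:23863255) near that of *Pkmyt1*.

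*Cldn7* (chr11:69778281-69781387, plus strand) had 14 WT and 13 DKO peaks within 50 kb, of which 13 and 11 were shared. Most were at the starts of other genes, among them *Eif5a*, *Ybx2*, *Slc2a4*, *Gabarap*, *Phf23*, *Dvl2* and *Acadvl*. The tallest WT peak, at chr11:69809141 near *Phf23*, had a height of 25.7 against 6.74 in WT ES cells. The tallest DKO peak, at chr11:69734891 in *Eif5a*, had 20.8 against 3.31 in DKO ES cells. Neither had a motif. Away from any start, a DKO peak 11069 bp upstream of *Cldn7* (chr11:69767212) had a height of 6.49 against 1.64, 2 motifs and 9 CpGs, and the nearest WT peak was 4964 bp from it. It was the DKO peak nearest to *Cldn7*. The nearest WT peak lay 12047 bp downstream of the gene, at the start of *Rai12* (chr11:69793434). It had a height of 7.09 against 2.00 in WT ES cells, 1 motif and 19 CpGs. It counted as shared through a DKO peak 480 bp away (chr11:69793914), which lay 4 bp from another WT peak.

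*Epcam* (chr17:88035319-88050446, plus strand) encodes a surface adhesion protein of epithelial cells. It had no peak within 5 kb in either list, and 2 peaks within 50 kb in each.

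*Cdh1* (chr8:109127251-109194146, plus strand) had its tallest peak within 5 kb in WT alone, in intron 2, 2711 bp from the start (chr8:109129962). The height was 20.7 in WT Flk1(+) against 3.72 in WT ES cells, above 94.1% of WT peaks, and the nearest DKO peak was 44670 bp away. The window had 7 CpGs and no AGATAA or TGATAA, but 1 match when a final G was allowed as well. That a WT peak had no DKO counterpart says only that none passed the authors' thresholds there, since no DKO height is listed where no DKO peak was called.

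A weaker pair lay in intron 5 of *Cdh1*, at chr8:109178444 in WT and chr8:109178193 in DKO, 251 bp apart. Heights were 7.91 in WT Flk1(+), 6.08 in DKO Flk1(+), 1.51 in WT ES and 1.20 in DKO ES cells, with 0 and 2 CpGs. Repeat-masked bases made up 95.2% of the WT window and 80.8% of the DKO window. The 2 windows had 0 and 1 motifs, and 4 matches each when a final G was allowed as well. Farther out, 44276 bp upstream of *Cdh1*, a shared pair at chr8:109082975 and chr8:109082962 had 4 motifs in each window. This pair is nearer to *Cdh3*, which encodes P-cadherin and ends at chr8:109080808, within 5 kb of it. It was the tallest WT peak within 50 kb, with 29.8 in WT Flk1(+), 8.41 in DKO Flk1(+), 8.87 in WT ES and 1.59 in DKO ES cells. The DKO to WT ratio of heights was 0.282, lower than all but 1.51% of the shared pairs, and the ES heights had a ratio of 0.179. The tallest DKO peak within 50 kb was another, at chr8:109207107 139 bp from a start of *Tmco7*, which lies downstream (9.56, with 37 CpGs and no motif).

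*Krt8* and *Krt18* encode the keratin pair of simple epithelia and lie next to each other on chromosome 15, *Krt8* on the minus strand (chr15:101827142-101834773) and *Krt18* on the plus strand (chr15:101858647-101862457). Within 5 kb of the 10 genes, the tallest WT peaks and the tallest DKO peaks were those of 2 shared pairs upstream of *Krt18*. At 2395 bp from the start in WT (chr15:101856252), and 2397 bp in DKO (chr15:101856250), the height was 34.9 in WT Flk1(+), 16.3 in DKO Flk1(+), 10.1 in WT ES and 2.36 in DKO ES cells. At 2991 bp (chr15:101855656) and 2968 bp (chr15:101855679) the heights were 27.0, 17.1, 8.54 and 4.75 in the same order. Each window had 1 motif, which at the taller WT peak had its midpoint 1.5 bp from the peak position. The WT ES heights at these sites were above 99.7% and 99.5% of those under WT peaks. The DKO ES heights were above 81.1% and 98.5% of those under DKO peaks, so the taller site stood out less in DKO ES than in WT ES cells.

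At the *Krt18* start itself, 129 bp upstream, there was a peak in DKO alone (chr15:101858518). It reached 6.08 in DKO Flk1(+) and 1.54 in DKO ES cells, and its window held 27 CpGs and no motif. The nearest WT peak was the upstream one, 2266 bp away. *Krt8* showed the opposite arrangement. A WT peak 208 bp upstream of its start (chr15:101834981) had a height of 6.03 against 1.70 in WT ES cells, 1 motif and 9 CpGs, and the nearest DKO peak was 933 bp away. A second WT peak without a DKO partner, in intron 1 (chr15:101833452), had 8.32 against 2.63, 22 CpGs and no motif.

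Farther upstream of *Krt8*, WT peaks at chr15:101835860 and chr15:101835985 overlapped 1 DKO peak at chr15:101835914. Heights were 6.03 and 6.46 in WT Flk1(+) and 5.46 in DKO Flk1(+), with 1.43, 1.95 and 0.758 in the ES cells of the same genotype. Each of these windows had 1 motif and 4 to 6 CpGs. Between the 2 genes, a shared pair without a motif lay at chr15:101848488 in WT and chr15:101848489 in DKO, and DKO alone had peaks at chr15:101846760, chr15:101846865, chr15:101847307 and chr15:101851024. The first 2 of these had 2 motifs each in overlapping windows.

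*Krt19* (chr11:100002124-100009979, minus strand), a type I keratin of simple epithelia, had 3 WT and 2 DKO peaks within 5 kb. The tallest were a shared pair at chr11:100009084 and chr11:100009109. It lay in intron 1 of the longest transcript of the annotation used here, and 1851 bp and 1876 bp upstream of the start that the authors used. Heights were 19.5 in WT Flk1(+), 9.82 in DKO Flk1(+), 2.52 in WT ES and 1.01 in DKO ES cells. The enrichment over ES cells was 7.77 in WT and 9.74 in DKO, so the ratio of heights (0.503) and the ratio of enrichments (1.25) lay on opposite sides of 1. The medians over all shared pairs, 0.806 for heights and 1.05 for enrichments, did so as well, and 17.4% of the pairs had a lower ratio of heights. Each window had 1 motif and 1 or 2 CpGs.

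The other *Krt19* peaks were not shared. In WT they were at chr11:100007491 (height 5.30, 1 motif, 9 CpGs), 258 bp from the authors' start, and at chr11:99998049 (9.74, 1 motif, 5 CpGs), which is also 786 bp from the start of *Krt15*. In DKO the peak was at chr11:100006701, 532 bp from the authors' start (6.17, no motif, 25 CpGs). Upstream, 12875 bp from the gene, a shared pair with 3 motifs in each window (chr11:100022854 and chr11:100022881) had 12.8 in WT Flk1(+), 9.02 in DKO Flk1(+), 1.98 in WT ES and 2.66 in DKO ES cells.

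**Figure D2:**
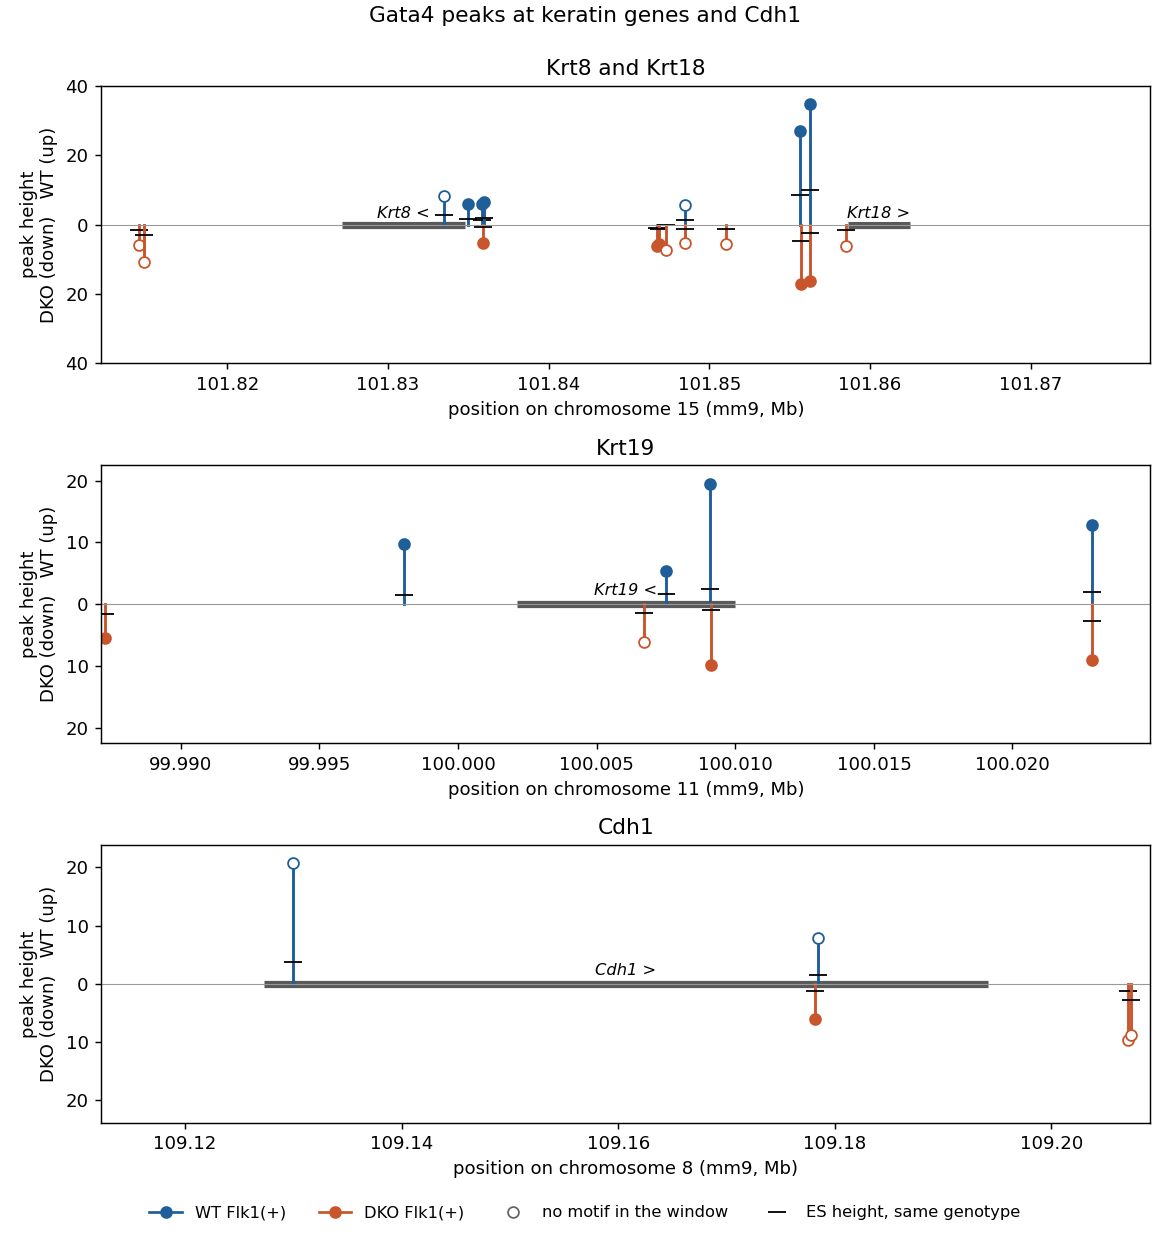
Peak heights (vertical axis, authors' profile height; WT up, DKO down) against mm9 position (horizontal axis, Mb) at *Krt8* and *Krt18*, *Krt19* and *Cdh1*, with 15 kb on each side. Filled circles are peaks with the motif, open circles peaks without it, black ticks the ES height of the same genotype and grey bars the genes. The tallest peaks drawn, 34.9 in WT and 17.1 in DKO, stand upstream of *Krt18*.

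*Tjp1* (chr7:72441051-72516125, minus strand) is the longest of the 10 genes, and had 1 WT peak in intron 2 (chr7:72495469). It was the lowest of the WT peaks within 50 kb of the genes, 5.05 in WT Flk1(+) against 0.538 in WT ES cells, with 1 motif and 4 CpGs. No DKO peak lay in the gene, and the nearest, at chr7:72565031, was 48906 bp upstream with a height of 5.83 against 1.06, 3 motifs and 1 CpG.

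The centres of 9 peaks are printed because they show the kinds of window met at these genes: those with a motif, those rich in CpGs without one, and the *Cdh1* intron window, which had neither. Each is 151 bases of the plus strand of mm9, 5′ to 3′, as in the deposited windows, and capitals mark AGATAA or TGATAA on either strand. They cover chr15:101856177-101856327 (*Krt18* upstream, WT), chr15:101858443-101858593 (*Krt18* start, DKO), chr15:101834906-101835056 (*Krt8* start, WT), chr11:100009009-100009159 (*Krt19* tallest, WT), chr11:100006626-100006776 (*Krt19* inside, DKO), chr5:135422210-135422360 (*Cldn4* exon, DKO), chr8:109129887-109130037 (*Cdh1* intron, WT), chr8:109082900-109083050 (*Cdh1* upstream, WT) and chr7:72495394-72495544 (*Tjp1* intron, WT).
Krt18 upstream, WT: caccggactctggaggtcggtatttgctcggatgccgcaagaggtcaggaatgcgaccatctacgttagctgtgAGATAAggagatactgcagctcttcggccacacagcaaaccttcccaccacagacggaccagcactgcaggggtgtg
Krt18 start, DKO: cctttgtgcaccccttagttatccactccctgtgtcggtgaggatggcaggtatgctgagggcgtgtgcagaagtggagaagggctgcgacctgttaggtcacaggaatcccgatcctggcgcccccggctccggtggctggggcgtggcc
Krt8 start, WT: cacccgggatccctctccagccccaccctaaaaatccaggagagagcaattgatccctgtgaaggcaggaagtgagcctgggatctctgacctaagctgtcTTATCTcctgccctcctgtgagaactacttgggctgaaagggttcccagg
Krt19 tallest, WT: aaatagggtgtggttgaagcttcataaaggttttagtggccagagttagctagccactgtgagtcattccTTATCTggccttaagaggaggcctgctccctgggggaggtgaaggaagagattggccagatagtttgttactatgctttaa
Krt19 inside, DKO: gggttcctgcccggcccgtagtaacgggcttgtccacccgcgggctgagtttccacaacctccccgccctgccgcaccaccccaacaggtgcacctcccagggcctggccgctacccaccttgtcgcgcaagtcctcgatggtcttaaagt
Cldn4 exon, DKO: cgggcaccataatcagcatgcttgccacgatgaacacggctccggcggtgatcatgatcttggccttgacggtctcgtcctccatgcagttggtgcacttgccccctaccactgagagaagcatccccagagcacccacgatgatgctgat
Cdh1 intron, WT: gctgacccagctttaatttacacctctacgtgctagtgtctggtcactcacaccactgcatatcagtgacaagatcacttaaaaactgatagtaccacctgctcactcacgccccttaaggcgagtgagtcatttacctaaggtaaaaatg
Cdh1 upstream, WT: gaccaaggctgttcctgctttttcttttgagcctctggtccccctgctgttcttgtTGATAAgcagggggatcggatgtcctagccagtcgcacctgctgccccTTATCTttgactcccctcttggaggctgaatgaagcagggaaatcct
Tjp1 intron, WT: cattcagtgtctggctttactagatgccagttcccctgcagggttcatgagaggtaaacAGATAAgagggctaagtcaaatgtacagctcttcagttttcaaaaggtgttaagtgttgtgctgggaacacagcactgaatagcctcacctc

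Counting each peak once, 47 WT and 56 DKO peaks lay within 50 kb of the 10 genes, and 14 and 10 within 5 kb. Of the 47 WT peaks, 32 were shared (68.1%, 95% Wilson interval 53.8 to 79.6), against 45.6% of the whole WT list. Of the 56 DKO peaks, 32 were shared (57.1%, 44.1 to 69.2), against 45.1%. *Cldn7* alone gave 14 of these WT peaks, 13 of them shared, and 13 of the DKO peaks, 11 of them shared. Some neighbouring WT peaks there overlapped the same DKO peak. The intervals, here and below, treat peaks as independent although many lie close together, so they are no test against the whole list. Much of this sharing was at the starts of other coding genes, where 23 of 25 WT peaks and 24 of 30 DKO peaks were shared. Over the whole lists, peaks within 1 kb of a coding start were shared in 71.6% in WT and 45.0% in DKO. Away from the starts of other genes, 9 of 22 WT and 8 of 26 DKO peaks were shared. These 22 and 26 still held 3 and 4 peaks at a start of the 10 genes, of which 1 in each list was shared. The whole lists had 35.0% and 45.2% for peaks at no coding start. Peaks within 1 kb of any coding start, the 10 genes included, made up 28 of 47 in WT, against 29% of the list, and 34 of 56 in DKO, against 51.3%.

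The motif was in 22 of the 47 WT windows (46.8%, 33.3 to 60.8), against 61.9% of the whole WT list. In DKO it was in 21 of the 56 windows (37.5%, 26.0 to 50.6), against 38.1%. It was in 9 of the 14 WT windows and 5 of the 10 DKO windows within 5 kb. In DKO all 5 of these were shared peaks, and the 3 peaks within 5 kb that were not shared, at *Cldn4*, *Krt18* and *Krt19*, had no motif and a median of 27 CpGs. In WT, 4 of the 6 that were not shared had a motif, and their median was 8 CpGs. The peaks that were not shared differed in the same way over the whole lists, with the motif in 69.5% in WT and 30.3% in DKO and medians of 6 and 21 CpGs, so this contrast is not particular to the 10 genes. Over all peaks within 50 kb the median was 19 CpGs in WT (8 to 30, 95% order-statistic interval) and 26.5 in DKO (17 to 29), beside 8 and 21 in the whole lists. Windows within 50 kb but away from the starts of other genes had a median of 7 in WT and 8.5 in DKO.

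Of the 27 shared pairs within 50 kb, each peak being the other's nearest, the DKO height was lower in 16, and the median DKO to WT ratio was 0.939. Over all 8489 such pairs the median was 0.806, and 71.9% were lower in DKO. Within 5 kb the ratio was below 1 in 6 of 7 pairs, with a median of 0.768, and the exception was the second *Cldn6* pair (1.29). Enrichment over ES cells was higher in DKO in 5 of these 7 pairs (median ratio 1.14) and in 16 of the 27 (59.3%, median 1.10). Over all shared pairs it was higher in DKO in 55.5%, with a median of 1.05, so the 27 pairs were near the whole. Enrichment also depends on the ES libraries, whose depth is unknown. At the *Krt18* pairs the ratios were 0.468 and 0.634, and the ES heights had ratios of 0.235 and 0.556. The median ratio of ES heights was 0.954 for the 27 pairs, 0.556 for the 7 within 5 kb and 0.694 for all shared pairs. Whether the lower heights in DKO reflect binding or the scaling of the profiles cannot be told apart here.

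Promoters of 300 bases across the start, from RefSeq (GRCm38.p6), were matched for 8 of the 10 genes, with 2 for *Cldn7*, and each was placed on mm9 by its sequence. The motif was in those of *Krt8* and *Tjp1*, and in 18.6% of all 32851 promoters. No peak of either list lay within 20 kb of the *Tjp1* start in this promoter. The WT peak in intron 2 was 7786 bp from another start of *Tjp1* in the annotation. The *Krt8* start had the WT peak described above.

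Of 80 other junction and epithelial genes in 5 lists, 34 had a WT peak within 5 kb (42.5%) and 43 a DKO peak (53.8%), beside the 39.4% and 49.1% of coding genes. Other tight junction genes had one in 13 of 30 in WT and 16 of 30 in DKO. Other adherens junction genes had one in 11 and 12 of 14, and desmosome genes in 4 and 4 of 8. Other keratins had one in 2 and 3 of 14, and epithelial surface and splicing genes in 4 and 8 of 14. The genes of these lists differ in length, with *Cdh2* and *Cdh11* far longer than *Krt10* and *Krt15*. No correction was made for length here either, and its part in the differences between lists, or from all coding genes, was not tested. A peak within 1 kb of a start with the motif was found at *Marveld3* and *Mpdz*, both tight junction genes, at *Pvrl3* (nectin-3) and at *Krt15* in WT, and at *Cldn12* in DKO. None of these 5 peaks was shared, where 60.8% of WT and 51.4% of DKO peaks with the motif within 1 kb of a coding start were. Their heights ranged from 5.17 at *Marveld3* to 9.74 at *Krt15*.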

How the data were processed

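The authors deposited a peak list for WT Flk1(+) and one for DKO Flk1(+) cells, each called over ES cells of that genotype, with 1 library per condition. The submitters' processing notes name CASAVA 1.8.1, cutadapt and mm9; the aligner is not given in the sources used here. No column names a library, so the lists were told apart by how many peaks the study states for each genotype. The deposited signal is the height of the authors' profile. The authors' ratio, or fold enrichment, divides the Flk1(+) height by the ES height, with an ES height below 1 taken as 1, as checked for all peaks. The authors' −log10 q orders the peaks, and the deposited rank was used as the score. Positions and distances to RefSeq genes are also deposited values. The lists hold no depths. The study states more mapped reads for DKO Flk1(+) than for WT Flk1(+), the depth of the ES libraries is unknown, and so is the scaling of heights.

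A peak listed for several genes was counted once. Gene positions were those of GENCODE vM1, and a symbol present more than once kept its longest entry. The deposited windows were checked against mm9 and are centred on the position for all peaks. Peaks were called shared when positions lay within 500 bp. Wilson intervals at 95% cover counting error only. All 10 genes were named. The rule also covers every peak within 5 kb of one, beyond that each list's nearest and tallest peak within 50 kb, and genes of the other lists with a motif-bearing peak within 1 kb of the start. Results for an item under this rule are not reported here. The members and lists were chosen with earlier results of these data known. Peaks between *Krt8* and *Krt18* and the upstream *Krt19* pair were named after their values were seen. The alternatives were stricter scores and enrichments, other distances and overlaps, another motif and a smaller window. The steps were tested on simulated data. Python 3.11.15, NumPy 2.4.6, pandas 2.3.3, SciPy 1.17.1, pysam 0.24.0, Matplotlib 3.10.9 and samtools 1.23.1 were used.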

Additional observations from a re-analysis of the deposited data

How the results depend on the processing

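Of 64 alternative values of 10 results, 32 stayed within 1.5 times the main count or inside the interval of the main share or median, and 32 did not. The number of genes with a peak within 5 kb, 6 in each list, was 3 in WT and 3 in DKO with peaks ranked above the median of each list, 3 in WT at an enrichment of at least 5, and 2 in WT and 3 in DKO within 1 kb of a transcription start. The number of peaks within 50 kb, 47 in WT and 56 in DKO, was 21 and 28 with peaks ranked above the median, 12 and 14 at an enrichment of at least 5, and 25 and 30 within 20 kb. The shared share was 25% in WT and 21.4% in DKO at that enrichment, where both lists were filtered, and 42.6% and 33.9% when positions had to lie within 100 bp. The share with the motif was 61.9% in WT with peaks ranked above the median, 75% in WT and 57.1% in DKO at an enrichment of at least 5, and 61.7% in WT when a final G was allowed. The median number of CpGs was 5 in WT and 13 in DKO at that enrichment, 9 in WT and 15 in DKO within 20 kb, 8 in WT with peaks ranked above the median, and 7 and 9 in the central 200 bp, a shorter window; the WT values of 8 and 9 lie inside the wide interval of the main median of 19. Leaving out peaks at the start of another coding gene, an alternative chosen after seeing the data, gave 22 and 26 peaks, 40.9% and 30.8% shared, 63.6% and 57.7% with the motif, and medians of 7 and 8.5 CpGs. Merging peaks of a list within 500 bp, also chosen after seeing the data, gave 39 and 43 peaks. No paired analysis was possible because each condition had 1 library. Small numbers of peaks, the unknown scaling of heights and the unknown depth of the ES libraries limit all of these values, and a place without a peak may lie just under the authors' thresholds.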
